A study of Mus musculus with 5 samples.

Results

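A set of 10 lysosomal genes was followed in single-nucleus RNA sequencing (snRNA-seq) data from sorted mouse brain nuclei: the cathepsin genes Ctsb, Ctsd, Ctsz, Ctss, Ctsl and Ctsc, the asparaginyl protease gene Lgmn, the protease inhibitor gene Cst3, the membrane protein gene Cd63 and the progranulin gene Grn. All of them were found by symbol among the 32285 genes of the count matrices. The libraries came from 2 mice in which 1 allele of Cgas carried the R241E change (R241E) and from 3 mice with wild-type Cgas (WT), 1 library per mouse. Both groups carried the Tmem119-creERT2 driver. R241E in cGAS, a sensor of DNA, weakens the binding to nucleosomes that holds the enzyme inactive, and the comparison asks what this active form does to microglia. The study describes a driver that acts mainly in microglia and brain macrophages. Its methods describe induction by tamoxifen in mice whose age at injection is given in weeks, not months. One passage of the study writes the controls' Cgas genotype with the R241E allele, whereas its methods and the sample titles call them wild type, and the titles were followed. The labels give hippocampus as the source and no age, and a treatment text about H151 or DMSO in aged mice accompanies every sample without assigning either.

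Lysosomes degrade material taken up by endocytosis, phagocytosis and autophagy. Cathepsins are their proteases: most are cysteine proteases, cathepsin D is an aspartic protease, and they are made as proforms that are processed in the acidic lumen. Cystatin C, the product of Cst3, is a secreted inhibitor of cysteine cathepsins, and microglia are known for high levels of several of these transcripts. Nuclei carry over a variable amount of cytoplasmic RNA, and short, abundant mature mRNAs of this kind are among those that can be carried over, so measures of carried-over RNA are given as well.

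The files held 9748 nuclei, of which 9505 passed the limits on genes, UMIs (unique molecular identifiers, 1 per captured RNA molecule) and mitochondrial share. The totals per library ran from 4183709 to 10130667 UMIs, and no more than 2 cell barcodes were shared by any pair of libraries. Nuclei were clustered without the 10 members, and clusters were named from marker genes, so that each class name is short for nuclei resembling that class. All samples are labelled as microglia, but microglia made up 41.5% and 37.9% of the kept nuclei in R241E mice 1 and 2 and 60.2%, 75.01% and 64.8% in WT mice 1 to 3. Within microglia the genotypes filled different clusters. A pair of clusters with the interferon-inducible genes Ifi204 and Ifi207 among their leading genes held many R241E nuclei. These were 269 and 381 of the 998 microglia of R241E mouse 1 and 116 and 120 of the 514 of R241E mouse 2. A smaller cluster, led by Ifi207 and Cxcl10 and also with Ifi204, held 81 and 30 nuclei of these mice. It held 0, 4 and 3 nuclei of WT mice 1 to 3. Clusters led by Olfr111 held most WT nuclei. Astrocytes and neurons were also unevenly built. One astrocyte cluster gave 174 of the 177 astrocytes of R241E mouse 1, and 1 neuronal cluster gave 165 of the 274 neurons of WT mouse 1. Those classes that reached 20 nuclei in each library, 7 in all, are described: microglia (5365 nuclei), border-associated macrophages (424), astrocytes (571), oligodendrocytes (650), neurons (742), fibroblasts (507) and mural cells (607).

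Levels are given as CPM, the UMIs of a gene per 1000000 UMIs summed over the nuclei of a class in 1 library. They compare classes for 1 gene, not genes with each other. Among the cysteine cathepsins in WT mice, Ctss, a protease that keeps its activity at neutral pH and cuts the invariant chain of MHC class II, was at 659 ± 102 CPM (SD, n = 3) in microglia and at 408 ± 101 CPM in border-associated macrophages, macrophages of the meninges and perivascular spaces. The lowest WT microglial value, 552 CPM, lay above the highest macrophage value, 518 CPM. In the other 5 classes its means ran from 26.9 CPM in astrocytes to 86.2 CPM in mural cells. Ctsc, which activates serine proteases of granules, had the reverse order: 915 ± 80.5 CPM in border-associated macrophages and 161 ± 5.67 CPM in microglia. Outside these classes its means were 24.5 CPM or lower.

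Ctsb, an abundant lysosomal cysteine protease, also had its highest WT level in border-associated macrophages, at 518 ± 85.0 CPM against 137 ± 18.02 CPM in microglia, and the 3 values of each class did not overlap. Ctsz, a carboxypeptidase, was at 182 ± 35.0 CPM in microglia, and the next class in order, border-associated macrophages at 134 ± 36.9 CPM, overlapped it. Ctsl, an endopeptidase of broad expression, was highest in fibroblasts at 149 ± 11.8 CPM, above microglia at 105 ± 22.0 CPM without overlap. Border-associated macrophages, next in order at 73.9 CPM on average, overlapped microglia, and were followed with overlap by astrocytes (69.9 CPM) and mural cells (69.2 CPM).

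The aspartic protease gene Ctsd was at 260 ± 91.9 CPM in microglia, and its lowest microglial value (164 CPM) lay above the highest of border-associated macrophages (145 CPM). Lgmn, which cuts after asparagine and processes cathepsin proforms, was at 663 ± 26.8 CPM in microglia and 403 ± 56.4 CPM in border-associated macrophages, again without overlap, and at 83.9 CPM or lower on average elsewhere. Grn, the precursor of granulins, which support lysosomal function, did not differ beyond its spread between border-associated macrophages (137 ± 45.7 CPM) and microglia (110 ± 29.2 CPM).

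Cst3 and Cd63 were spread over more classes. Cst3 was at 2543 ± 1400 CPM in microglia and 2096 ± 731 CPM in astrocytes, and from microglia down to fibroblasts each class overlapped the next. Neurons (427 ± 157 CPM) and oligodendrocytes (358 ± 129 CPM) lay below them. The large SD in microglia came from WT mouse 1, at 1153 CPM, and WT mouse 3, at 3952 CPM. Cd63, a tetraspanin of late endosomes and lysosomes, was at 35.8 ± 12.3 CPM in microglia, below mural cells (162 ± 59.5 CPM), fibroblasts (126 ± 66.5 CPM), border-associated macrophages (117 ± 34.0 CPM) and astrocytes (111 ± 36.2 CPM), and these 4 classes overlapped with one another in that order.

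**Figure D1:**
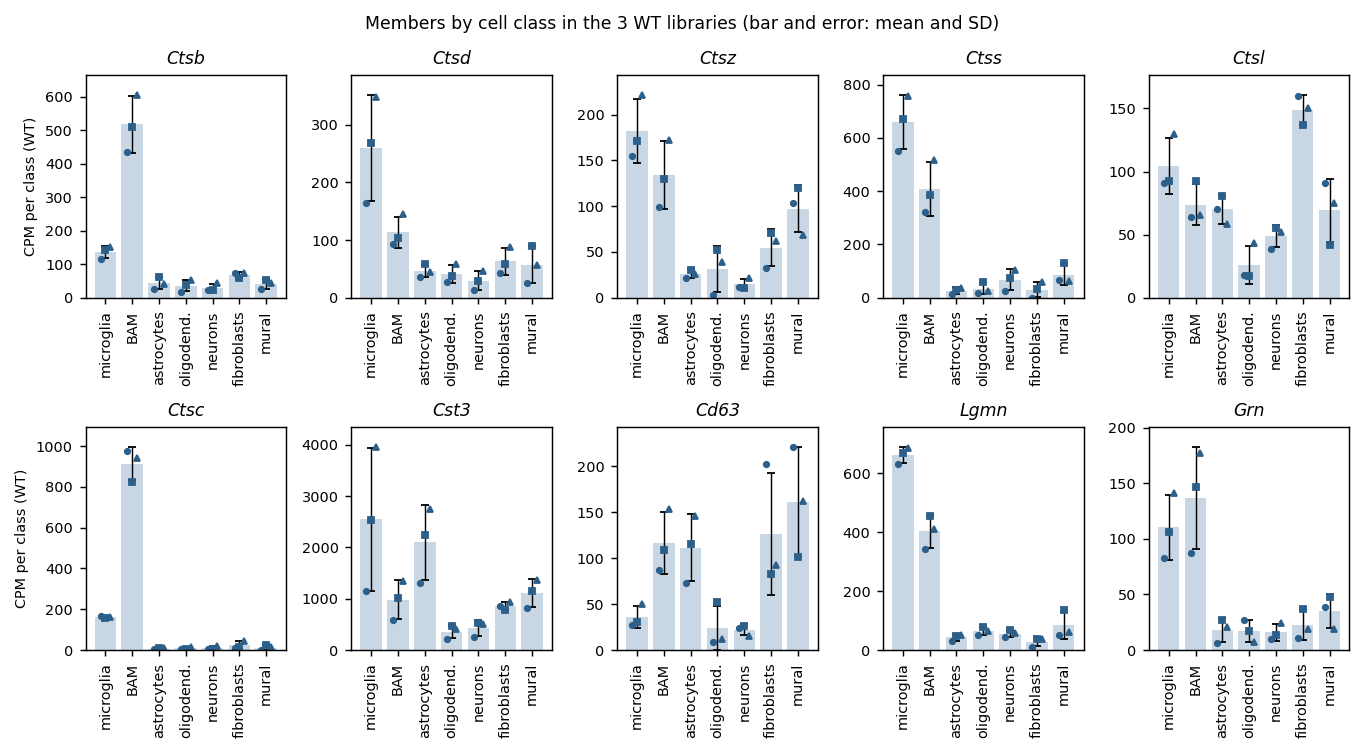
CPM (UMIs per 1000000 UMIs of the class, linear axis from 0) of each member in 7 cell classes of the 3 WT libraries, with bars and error bars for mean and SD and a point per mouse (BAM, border-associated macrophages). Ctss and Lgmn stood highest in microglia, Ctsb and Ctsc in border-associated macrophages, Ctsl in fibroblasts and Cd63 in mural cells.

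Levels in astrocytes were set beside those of genes of microglial identity (Csf1r, Cx3cr1, P2ry12, Siglech and Tmem119), which astrocytes should lack. Summed, these genes reached between 2.58% and 6.45% of their microglial level in the astrocytes of the 5 libraries. Abundant mature microglial mRNAs (C1qa, C1qb, C1qc, Fcer1g and Tyrobp) reached 2.21% to 10.9%. Ctss in astrocytes lay at 1.80% to 5.01% of its microglial level, Ctsc at 1.14% to 4.96% and Lgmn at 4.24% to 7.43%, which is in or close to the identity range. Ctsz (9.003% to 17.9%), Ctsd (10.4% to 22.4%) and Ctsb (16.5% to 43.0%) lay above the identity range in every library. The lowest Ctsz and Ctsd values fell within the range of the mature mRNAs, but each gene lay above those mRNAs within every library. Ctsl in astrocytes reached 45.1% to 87.0%, Cst3 69.3% to 113% and Cd63 263% to 380% of the microglial level. The identity range of astrocytes was not that of every class. The same sum reached 1.66% to 4.22% of its microglial level in fibroblasts and 1.22% to 6.46% in oligodendrocytes. In neurons it reached 3.47% to 10.2%, in mural cells 5.87% to 12.6% and in border-associated macrophages 39.0% to 43.7%. How much of each value was carried-over microglial RNA was not tested.

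On GRCm38.p6 the members, all protein-coding, lie at chr14:63122462-63145923 (Ctsb), chr7:142375910-142387827 (Ctsd), chr2:174427494-174439039 (Ctsz), chr3:95526786-95556405 (Ctss), chr13:64361890-64370772 (Ctsl), chr7:88278024-88315861 (Ctsc), chr2:148871722-148875512 (Cst3), chr10:128896231-128912822 (Cd63), chr12:102394082-102439728 (Lgmn) and chr11:102430507-102436809 (Grn). Promoter sequence was available in a RefSeq table of GRCm38.p6 for 9 of the 10 members, with 10 start sites among them. A search on both strands of the 250 bases before each start covered 3 motifs: TCACGTGA, the core of the element bound by TFEB, a transcription factor of lysosomal genes; CACGTG, the general E-box that lies inside it; and TTCNNTTTC, the core of the interferon-stimulated response element. TCACGTGA was found before Ctsd, CACGTG before Ctsd, Ctsl and a second start of Lgmn, and TTCNNTTTC before Ctss. Of all 32851 windows in the table, 0.785% held TCACGTGA, 6.02% held CACGTG and 7.13% held TTCNNTTTC. The stretches that hold a match are shown with the matched letters in capitals. The Ctss and Ctsd stretches run up to the annotated start, at chr3:95526536-95526785 on the plus strand and chr7:142387828-142388077 on the minus strand, the Ctsl stretch is chr13:64370671-64370770 on the minus strand, and the Lgmn stretch is chr12:102439093-102439192 on the minus strand. The Ctsl and Lgmn stretches lie before the start used but inside the gene spans given above.
Ctss: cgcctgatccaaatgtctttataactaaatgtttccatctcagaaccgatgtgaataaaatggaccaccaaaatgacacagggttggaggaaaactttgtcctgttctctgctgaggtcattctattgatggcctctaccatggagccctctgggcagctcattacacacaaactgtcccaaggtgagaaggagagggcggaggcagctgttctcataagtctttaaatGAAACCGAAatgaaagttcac
Ctsd: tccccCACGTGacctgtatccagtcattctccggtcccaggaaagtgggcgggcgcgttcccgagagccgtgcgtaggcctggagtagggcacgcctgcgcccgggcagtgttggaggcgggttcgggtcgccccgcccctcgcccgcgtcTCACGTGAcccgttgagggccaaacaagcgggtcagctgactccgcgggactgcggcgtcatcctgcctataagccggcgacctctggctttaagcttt
Ctsl: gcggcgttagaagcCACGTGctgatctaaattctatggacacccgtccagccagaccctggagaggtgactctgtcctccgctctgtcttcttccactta
Lgmn: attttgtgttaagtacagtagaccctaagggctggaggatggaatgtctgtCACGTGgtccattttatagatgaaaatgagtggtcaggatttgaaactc
The match before Ctss, written GAAACCGAA on the strand of the gene, ends 13 bases before the start, and the longer match before Ctsd ends 92 bases before it. A match describes the letters only, and binding was not measured.

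In microglia all 10 members had a higher mean in R241E than in WT, and 7 rose past the test. Sums of counts per library were compared with edgeR's quasi-likelihood test with Benjamini-Hochberg adjustment over the 12705 genes tested, with calls at an adjusted p under 0.05. Of these genes 8.64% were called, and 5.66% were called higher. The members' median log2 fold change was 0.75, against -0.000462 for all genes tested. The members had been chosen with earlier results of these data known, so the count called and this median are descriptions. The summed members took 61.7 and 96.1 of 10000 UMIs in R241E mice 1 and 2, and 31.4, 48.3 and 66.0 in WT mice 1 to 3. These sums overlapped, since R241E mouse 1 lay under WT mouse 3. Cst3 weighed most in them, with 42637 microglial UMIs over all libraries, followed by Ctss with 13505.

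Ctss had the smallest adjusted p of the members. The R241E mice had 1367 and 1624 CPM, the WT mice 552, 671 and 755 CPM. Both R241E values were far above all WT values, with a log2 fold change of 1.17 (SE 0.12, adjusted p = 5.62e-06, edgeR). For Ctsc the R241E mice had 281 and 252 CPM and the WT mice 166, 155 and 162 CPM. Its spread within each group was small beside the gap between them, and it rose by 0.73 on the log2 scale (SE 0.10, adjusted p = 0.000125).

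The other cysteine cathepsins rose as well. Ctsb was at 209 and 266 CPM in R241E against 116, 143 and 151 CPM in WT (log2 fold change 0.76, SE 0.13, adjusted p = 0.000846). Ctsz was at 278 and 395 CPM against 154, 172 and 222 CPM (log2 fold change 0.86, SE 0.15, adjusted p = 0.0014). In both genes R241E mouse 2 was the highest library and the groups did not overlap. Ctsl was at 169 and 176 CPM against 90.9, 92.9 and 130 CPM (log2 fold change 0.71, SE 0.13, adjusted p = 0.00271), with WT mouse 3 closest to the R241E mice. Ctsl was not called by edgeR after nuclei were thinned to 1000 UMIs (adjusted p = 0.0697) or in nuclei with no mitochondrially encoded UMI (0.0682). Neither Ctsl nor Ctsb was called in nuclei of low ribosomal protein share (0.309 and 0.111). The same held without a cluster led by C1q genes (0.264 and 0.0673). Ctsz was called in all of these.

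Grn had 167 and 242 CPM in R241E and 83.2, 107 and 141 CPM in WT (log2 fold change 0.84, SE 0.18, adjusted p = 0.00573). Cd63 had 60.5 and 82.1 CPM in R241E and 27.2, 30.3 and 49.9 CPM in WT (log2 fold change 0.94, SE 0.21, adjusted p = 0.0095). Both were called and did not overlap between groups, and in both WT mouse 3 was again the highest WT library. Both depended on single libraries. Without R241E mouse 2 neither was called (adjusted p = 0.0964 for Cd63 and 0.0979 for Grn), and without WT mouse 2 Cd63 was not (0.0566). Over all alternatives the adjusted p ran from 4.12e-07 to 0.387 for Cd63 and from 2.1e-10 to 0.495 for Grn.

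Lgmn, Ctsd and Cst3 did not pass. Lgmn had 784 and 858 CPM in the R241E mice, with no overlap with the 634, 668 and 686 CPM of the WT mice, with a log2 fold change of 0.30 (SE 0.09, adjusted p = 0.0514). Ctsd was at 320 and 503 CPM against 164, 269 and 348 CPM (log2 fold change 0.63, SE 0.22, adjusted p = 0.104). Cst3 was at 2534 and 5211 CPM against 1153, 2524 and 3952 CPM (log2 fold change 0.60, SE 0.34, adjusted p = 0.364). Ctsd and Cst3 overlapped between the groups, since R241E mouse 1 lay below WT mouse 3 in both. All 3 were called once WT mouse 3 was left out (adjusted p = 0.0203 for Lgmn, 0.00516 for Ctsd and 0.0186 for Cst3). Over all alternatives their adjusted p ran from 0.00316 to 0.874, from 1.84e-08 to 0.965 and from 1.8e-12 to 0.995. Over all libraries, 8 of the 10 members had both R241E values above all WT values, where 19.6% of all genes tested did.

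**Figure D2:**
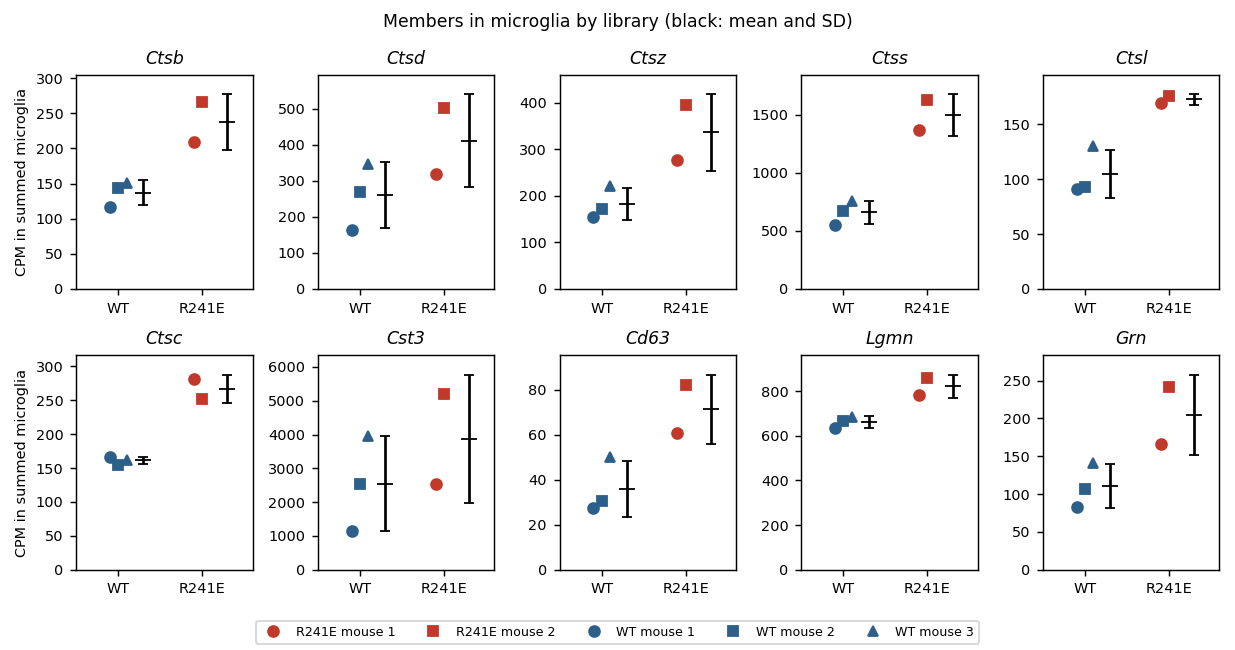
CPM of each member in summed microglia (linear axes from 0), with a point per mouse and the mean and SD of each genotype in black. The 2 R241E libraries lie above the 3 WT libraries for 8 members, and the genotypes overlap for Ctsd and Cst3.

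Shares taken as measures of carried-over cytoplasmic RNA moved with genotype in the same nuclei. Whether these shares reflect carried-over RNA or the state of the cells was not tested. Cytosolic ribosomal protein genes (78 genes) took 0.664% and 0.816% of microglial UMIs in the R241E mice and 0.349%, 0.388% and 0.548% in the WT mice. Mitochondrially encoded genes took 0.0797% and 0.0812% against 0.0553%, 0.0545% and 0.0671%, and Malat1, a nuclear RNA, took 3.77% and 3.804% against 4.07%, 4.69% and 4.71%. In each of these the genotypes did not overlap, with the cytoplasmic measures higher and the nuclear RNA lower in R241E. Abundant cytoplasmic mRNAs (6 of 6 genes found) took 0.145% and 0.182% against 0.0977%, 0.109% and 0.147%, which overlap. The order of the WT mice was the same in the ribosomal share as in the summed members.

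The microglial nuclei of all libraries were therefore divided into 4 equal bins by their share of ribosomal protein UMIs, and the genotypes were compared within bins. The top bin held 39.4% and 51.9% of the microglia of the R241E mice and 8.01%, 11.1% and 30.4% of those of the WT mice. The summed members were 1.81 to 4.21 times as high in the highest as in the lowest bin of each library, and in no bin were both R241E mice above all WT mice. Cst3 weighed most in the sum over all microglia. The ratio of the highest to the lowest bin was 3.17 to 8.34 for Cst3, and 0.982 to 1.37 for Ctsc and 0.887 to 1.40 for Lgmn.

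Members separated by genotype to different degrees once the bins were held apart. The bins did not equalise the ribosomal share between genotypes. In the highest bin it was 1.08% and 1.21% in R241E against 0.840%, 0.912% and 0.909% in WT. In the lowest it was 0.268% and 0.255% against 0.238%, 0.240% and 0.250%. Ctss was above WT in both R241E mice in all 4 bins. In the lowest bin it had 967 and 892 CPM in R241E and 530, 570 and 555 CPM in WT, and in the highest 2091 and 2295 CPM against 558, 949 and 990 CPM. Ctsc was also apart in all 4 bins, at 295 and 197 CPM against 172, 156 and 129 CPM in the lowest and 290 and 269 CPM against 177, 166 and 175 CPM in the highest. Across all genes tested, 2.42% were above WT in both R241E mice in all 4 bins. Ctsd and Cst3 were apart in none of the bins. In the lowest bin Cst3 had 692 and 1068 CPM in R241E, beside 819, 1468 and 1798 CPM in WT, and Ctsd had 153 and 162 CPM against 141, 183 and 232 CPM. The other 6 members were apart in between 1 bin (Grn) and 3 bins (Ctsl and Lgmn). All 6 were apart in the highest bin, which was the only such bin for Grn. The part of the remaining difference in ribosomal share in these gaps was not tested.

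**Figure D3:**
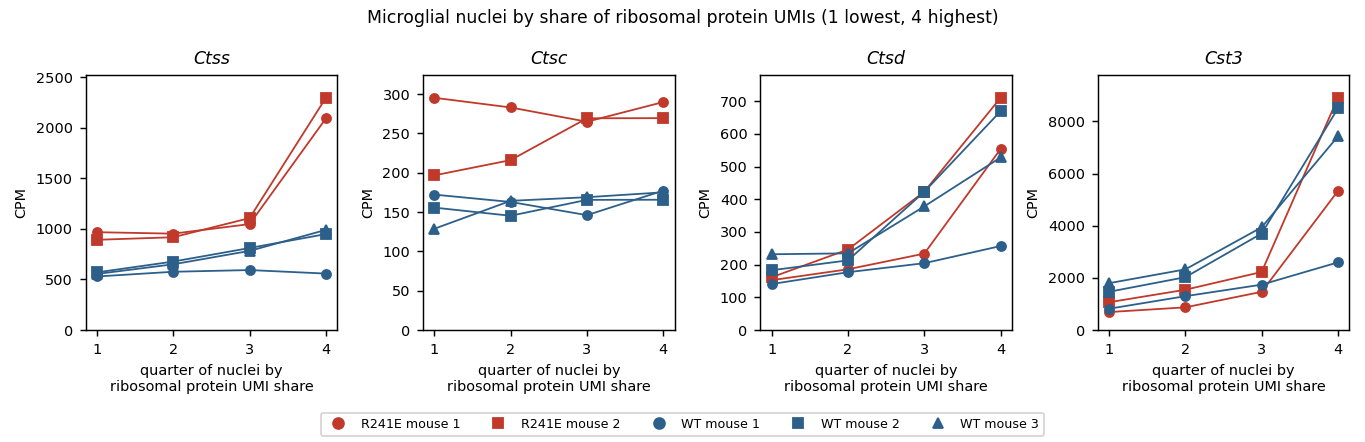
CPM (linear axes from 0) of 4 members in microglial nuclei, divided into 4 equal bins from the lowest (1) to the highest (4) share of ribosomal protein UMIs over all libraries, with a line per mouse. The R241E lines of Ctss and Ctsc lie above the WT lines in every bin, and those of Ctsd and Cst3 cross them.

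The comparison was repeated in selections of microglial nuclei. In nuclei with no mitochondrially encoded UMI, 5 members were called higher (Ctss, Ctsc, Ctsb, Ctsz and Ctsd), where 3.68% of all genes tested were. In nuclei at or under the median ribosomal protein share, 3 were (Ctss, Ctsc and Ctsz), against 4.13% of all genes tested, and the members' median log2 fold change was 0.36. There the log2 fold changes were 0.66 for Ctss (SE 0.09), 0.71 for Ctsc (SE 0.13) and 0.51 for Ctsz (SE 0.13), while Ctsd was at -0.03 (SE 0.16) and Cst3 at -0.59 (SE 0.20). The change of Ctsc was thus about as large as in all microglia, that of Ctss was smaller, and that of Cst3 had the other sign. The difference in the summed members between genotypes was 30.3 per 10000 UMIs in all microglia and 1.22 in these nuclei. Cst3, the largest part of the sum in all microglia, reversed there, while 8 of the 10 members were still higher in R241E. The part of carried-over RNA in the changes that remained was not tested.

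One microglial cluster stood out in both the members and the measures of carried-over RNA. It was led by C1qc, C1qb and C1qa, complement genes with abundant mature mRNA, and by Ctss, which was not used for clustering. It held 12.6% and 23.5% of the microglia of the R241E mice and 0.325%, 1.76% and 4.19% of those of the WT mice. Its summed members took 189 and 219 of 10000 UMIs in R241E and 252 and 269 in WT mice 2 and 3, against 29.0 to 72.8 in the other microglial clusters of libraries with at least 20 nuclei there. WT mouse 1 had 3 such nuclei, too few to give a level. Ribosomal protein genes took 1.37% and 1.39% of its UMIs in R241E and 0.907% and 1.06% in these WT mice, the highest share of any microglial cluster. A level summed over microglia cannot by itself separate more nuclei of such a cluster from more RNA per nucleus. The study reported a disease-associated microglial state that was larger in R241E, with Ctsb, Ctsd, Ctsz and Cd63 among its raised genes. Whether this cluster matches that state was not tested.

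Within that cluster the members did not move together. Ctss had 3497 and 3205 CPM in R241E, above the 1890 and 1944 CPM of WT mice 2 and 3, and Ctsz had 666 and 725 CPM against 501 and 483 CPM, higher in both R241E mice. Cst3 was at 10593 and 13729 CPM against 18846 and 20575 CPM, lower in both. Ctsd, at 1020 and 1085 CPM against 1409 and 1093 CPM, was lower in R241E too, by a narrow margin to WT mouse 3. Without the cluster, 3 members were called higher in microglia (Ctss, Ctsc and Ctsz), with log2 fold changes of 0.73 (SE 0.10), 0.70 (SE 0.10) and 0.47 (SE 0.13), where 5.04% of all genes tested were called higher.

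**Figure D4:**
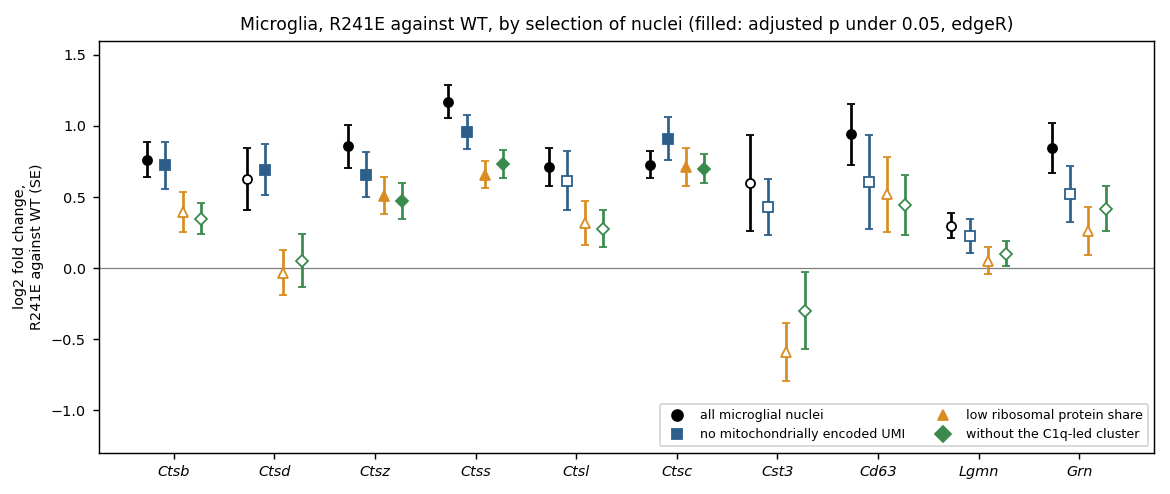
Log2 fold change of each member in microglia, R241E against WT, with SE, in all microglial nuclei and in 3 selections of them, filled where the adjusted p of edgeR's quasi-likelihood test was under 0.05. Ctss, Ctsc and Ctsz are filled in all 4 selections, and Cst3 lies below 0 in the nuclei of low ribosomal protein share and without the C1q-led cluster.

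The share of microglial nuclei with a UMI was compared after each nucleus was thinned to 1000 UMIs, which left out between 4 and 64 shallower microglia per library. In R241E mice 1 and 2, 61.1% (58.0% to 64.1%, 95% exact binomial interval) and 64.4% (60.1% to 68.7%) of microglia had a Ctss UMI. In WT mice 1 to 3 the shares were 42.5% (39.2% to 45.8%), 43.9% (41.3% to 46.5%) and 45.0% (42.4% to 47.7%). The intervals cover counting error only. In neurons, which should lack it, the share was 3.41% to 6.38%. Before thinning, Ctss was seen in 86.1% of R241E and 69.8% of WT microglia on average, at median depths of 3099 and 2602 UMIs against 2490, 2616 and 2062 UMIs, and in neurons, at 2663 to 4894 UMIs, in 6.71% to 16.5%. Cst3 was seen in 64.9% and 75.4% against 55.7%, 75.2% and 76.1% of thinned microglia, with no separation of the genotypes, and in 21.5% to 34.1% of neurons.

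At least 3 of the members were seen in 53.6% and 64.8% of thinned R241E microglia and in 36.3%, 45.3% and 51.2% of thinned WT microglia. Nuclei were also divided by their UMIs of an interferon list of 28 genes, all of them called higher in R241E microglia. The list had been chosen on earlier results of these libraries. Within the R241E mice, Ctss was at 1377 and 1545 CPM in nuclei with no interferon UMI after thinning. It was at 1193 and 1431 CPM in nuclei with 1 to 2 and at 1438 and 1511 CPM in nuclei with 3 or more. Before thinning, the R241E nuclei of the cluster led by Ifi207 and Cxcl10 had 1408 and 1602 CPM of Ctss. Among the microglial clusters of these mice only the C1q-led one had more. In WT nuclei with no interferon UMI Ctss was at 553, 622 and 737 CPM. Both R241E mice were thus above all WT mice in nuclei where no interferon UMI was seen after thinning. Ribosomal protein genes took 0.783% and 0.900% of the UMIs of these nuclei in R241E and 0.387%, 0.424% and 0.575% in WT, and their part in the difference was not tested. In the R241E mice this share was lower in the other bins, at 0.677% and 0.816% with 1 to 2 interferon UMIs. With 3 or more it was 0.721% and 0.855%. The bins are ranges of a count, and 325 and 143 of the R241E nuclei had 2 or 3 interferon UMIs, next to the boundary.

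Outside microglia no member was called in R241E against WT in any of the 6 classes tested with edgeR, by DESeq2 or by limma-voom. In edgeR 3 members in astrocytes, 2 in border-associated macrophages and 1 each in neurons and oligodendrocytes had an unadjusted p under 0.05. The background of calls was also low: 0.383% of genes in astrocytes, 0.686% in border-associated macrophages, 0.0173% in fibroblasts, 0% in mural cells, 0.0111% in neurons and 0.282% in oligodendrocytes. Between 7 and 10 members had enough counts to be tested in a class. The median log2 fold change of those tested ran from -0.15 in oligodendrocytes to 0.48 in astrocytes, with all-gene medians between -0.0107 and 0.00396.

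Border-associated macrophages, in which the driver is also described as active, held 493 and 749 CPM of Ctss in R241E, overlapping the 320, 385 and 518 CPM of WT (log2 fold change 0.57, SE 0.22, adjusted p = 0.486, edgeR). Ctsz was at 185 and 274 CPM against 99.0, 130 and 173 CPM without overlap, and was not called (log2 fold change 0.70, SE 0.28, adjusted p = 0.505). Ctsc, at its highest in this class, had 941 and 789 CPM in R241E beside 978, 825 and 942 CPM in WT (log2 fold change -0.05, SE 0.17). R241E mouse 2 was the lowest of the 5 libraries. Ribosomal protein genes took 0.529% and 0.645% of the UMIs of this class in R241E and 0.314%, 0.353% and 0.548% in WT, which overlap.

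In astrocytes Cst3 had 2536 and 4008 CPM in R241E, overlapping the 1302, 2247 and 2740 CPM of WT (log2 fold change 0.69, SE 0.28, adjusted p = 0.470, edgeR). Cd63 was at 166 and 215 CPM against 73.5, 115 and 146 CPM and Ctsl at 91.2 and 119 CPM against 70.4, 80.8 and 58.6 CPM. Both were apart between the genotypes without being called (adjusted p = 0.321 and 0.470). Ribosomal protein genes took 0.349% and 0.391% of astrocyte UMIs in R241E and 0.435%, 0.289% and 0.351% in WT, so that this share did not move with genotype here. In oligodendrocytes Cst3 went the other way, at 233 and 203 CPM in R241E against 213, 460 and 403 CPM in WT, with R241E mouse 1 above WT mouse 1. The ribosomal share there was higher in R241E, at 0.383% and 0.424% against 0.201%, 0.240% and 0.382%. Microglial transcripts were lower in the means of the same oligodendrocytes: the 3 identity genes tested had a median log2 fold change of -1.42 and the 3 mature microglial mRNAs tested one of -0.57, with none called. The R241E libraries also held the smaller shares of microglia, and the part of microglial RNA in the Cst3 values was not tested.

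**Figure D5:**
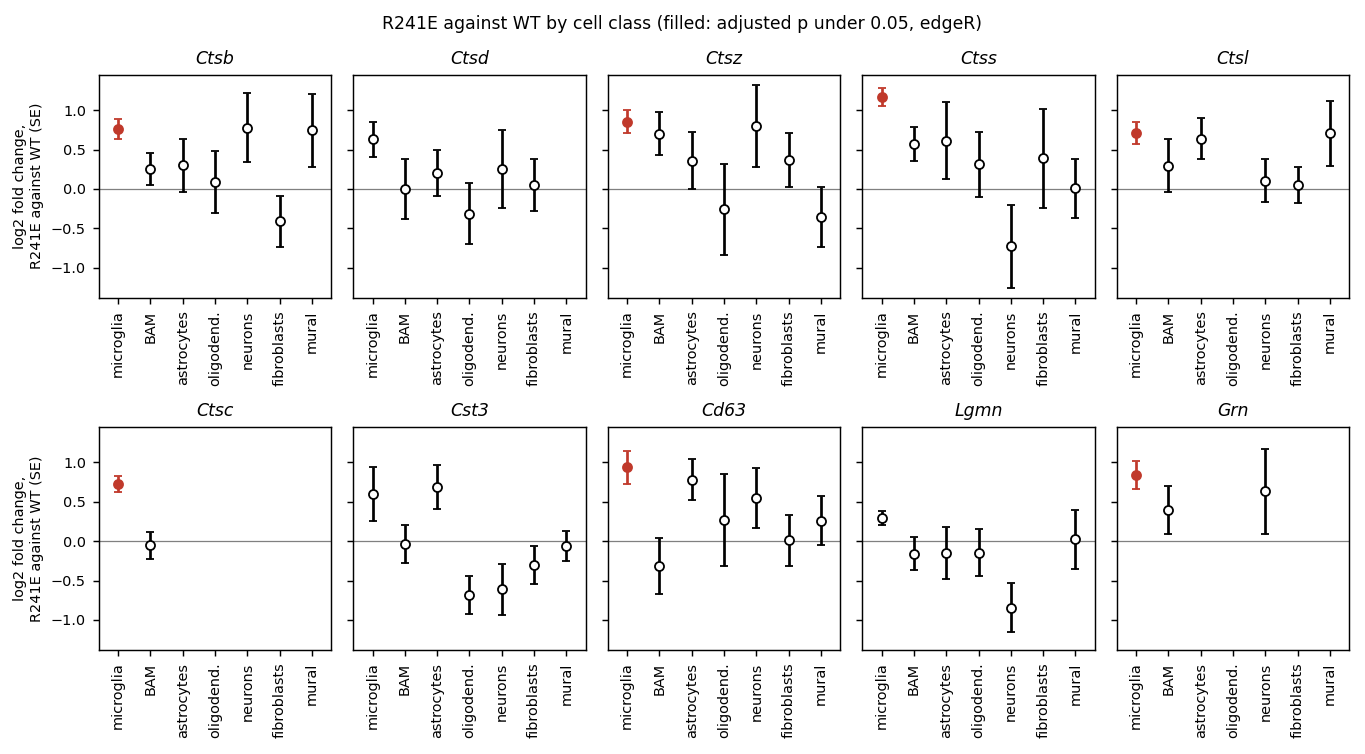
Log2 fold change of each member, R241E against WT, with SE, in 7 cell classes (BAM, border-associated macrophages), filled where the adjusted p of edgeR's quasi-likelihood test was under 0.05, and without a point where the gene had too few counts to be tested. The filled points, 7 of them, are all in microglia.

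A call in 1 class and none in another does not show a difference, so the effect in microglia was tested against that in each other class, with library as a block. Of the 10 members, 1 differed between microglia and border-associated macrophages, where 0.904% of genes did. This was Ctsc, whose R241E effect was larger in microglia by 0.76 on the log2 scale (SE 0.17, adjusted p = 0.00391, edgeR). The difference was 0.58 for Ctss (SE 0.19, adjusted p = 0.154) and 1.23 for Cd63 (SE 0.36, adjusted p = 0.0818). Against neurons, Ctss differed by 1.93 (SE 0.40, adjusted p = 0.0392), where 0.393% of genes were called. In those neurons all 4 identity genes of microglia tested and all 5 mature microglial mRNAs also had negative log2 fold changes, with medians of -1.22 and -0.52 and none called, and their part in the difference was not tested. Against oligodendrocytes, Cst3 differed by 1.12 (SE 0.26, adjusted p = 0.00554), where 0.634% were. No member differed against astrocytes, fibroblasts or mural cells, with unadjusted p under 0.05 for 0, 4 and 4 members and backgrounds of 0.656%, 0.908% and 0.334%. All 3 calls were lost without R241E mouse 1 and without R241E mouse 2, each of which leaves 1 R241E mouse: the adjusted p was then 0.119 and 0.124 for Ctsc, 0.368 and 0.0736 for Ctss and 0.0953 and 0.940 for Cst3. Those of Ctss and Cst3 were also lost without WT mouse 2 (0.135 and 0.122), and that of Ctss with DESeq2 size factors (0.0523). The smallest adjusted p over the alternatives was 0.00331 for Ctsc, 0.00021 for Ctss and 1.51e-06 for Cst3. With so few mice, the remaining pairs are not shown to respond alike.

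The rest of the lysosome was read from 6 lists with 86 genes, of which 75 were tested in microglia. Of these 11 were called, all higher in R241E, beside 8.64% of all genes tested that were called and 5.66% that were called higher. Among the other cathepsins 2 of 5 tested rose: Ctsh, an aminopeptidase (463 and 460 CPM against 254, 266 and 322 CPM), and Ctse, an aspartic protease (16.9 and 8.34 CPM against 1.22, 3.68 and 5.08 CPM). Of 2 cystatins tested, Cst7, an inhibitor of cathepsins in immune cells, rose, with 22 and 14 UMIs in the R241E mice and 0, 2 and 1 UMIs in the WT mice.

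Of 30 lysosomal hydrolases and activators tested, 24 were higher and 4 rose: the cholesterol carrier Npc2 (log2 fold change 0.76, SE 0.11), the ganglioside activator Gm2a (1.27, SE 0.25), the saposin precursor Psap (0.55, SE 0.11) and the mannosidase Man2b1 (0.48, SE 0.10). Among 14 lysosomal membrane genes 1 rose, Lamp1, at 142 and 197 CPM against 92.9, 99.5 and 130 CPM. Among 16 genes of the vacuolar ATPase, the proton pump that acidifies the lysosome, 1 rose, Atp6v1b2 (log2 fold change 0.38, SE 0.11). Of 8 sorting and transcription factor genes 2 rose, both in the mannose 6-phosphate pathway that delivers enzymes to the lysosome: Gnptab, which builds the tag (log2 fold change 0.84, SE 0.16), and Igf2r, a receptor for it, with 13 and 6 UMIs against 1, 2 and 2 UMIs. The medians of these lists, from 0.13 to 0.29 on the log2 scale without the cystatins, were smaller than the members' 0.75. The members and these lists were chosen with earlier results of these data known, so this contrast is a description only. Outside microglia none of the 86 genes was called by edgeR, DESeq2 or limma-voom, with an unadjusted p under 0.05 in 10, 3 and 11 of 267 tests.

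All 5 genes of a list of abundant mature microglial mRNA rose in microglia too, C1qa at 692 and 1066 CPM against 249, 429 and 629 CPM and Tyrobp at 226 and 378 CPM against 131, 165 and 227 CPM, the latter with overlap. Of 5 genes of microglial identity 1 was called, Siglech, which fell by 0.41 on the log2 scale (SE 0.09).

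The genes most like each member across the 35 sums of 7 classes by 5 libraries were found by Pearson's r of log2 CPM, as a description. The points share libraries and class, so that r mostly reflects the class order. Ctss was most like C1qc (r = 0.95), Lgmn like Actr2 (0.95), Ctsc like Tut7 (0.94), Ctsb like Dclre1c (0.93) and Grn like C1qb (0.90). Ctsd was most like Tgfbr1 (0.89), Ctsz like Tec (0.88), Ctsl like Plcb3 (0.86), Cd63 like Axl (0.85) and Cst3 like Tlr3 (0.82).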

How the data were processed

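Nuclei were isolated, stained and sorted by the authors as negative for NeuN and Olig2, and sequenced with 10x Genomics 3′ chemistry. The deposited values were raw UMI counts per gene and nucleus from Cell Ranger 7.0.0 on mm10, per the file headers and labels, and whether intronic reads were counted is not given in the sources used here. Nuclei with at least 200 genes, under 4500 genes, under 10000 UMIs and under 5% mitochondrial UMIs were kept, the upper limits being the treatment of doublets. Nuclei were clustered with scanpy 1.11.5 (3000 variable genes, 30 components, 20 neighbours, resolution 1, no integration), giving 28 clusters. Each cluster was given the class with the best marker score (mean log2 ratio to the other clusters' median). This required that 3 of its markers were seen in 10% of nuclei and that the score was at least 2. In all, 79 kept nuclei were left unnamed. A cluster of 13 nuclei had a score of 1.07, under this limit. Clusters of 52 and 14 nuclei, with pituitary or haemoglobin genes among their leading genes, were left unnamed by a rule set after the clusters were seen.

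Counts were summed per library and class and tested with edgeR 4.0.16 (R 4.3.3; TMM, filterByExpr, genotype as the only term), since nuclei of 1 mouse are not replicates. SE is the log2 fold change divided by the square root of F. DESeq2 1.42.0, limma 3.58.1 (voom) and other settings were alternatives. Scripts were tested on simulated data, in which the test between classes recovered few small differences. The members and all lists were chosen with earlier results of these data known, and all 10 members and the called genes of each list with the smallest adjusted p are named. Leaving out the C1q-led cluster and dividing nuclei by ribosomal protein share into 4 bins were chosen after the data were seen. Positions and promoters are those of RefSeq on GRCm38.p6, matched by symbol. No batch or date is given for the libraries. Replicate numbers are not known to pair the mice.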

Additional observations from a re-analysis of the deposited data

Results flagged for a closer look

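The R241E effect differed between classes by its own test in 3 cases. The effect on Ctsc was larger in microglia than in border-associated macrophages by 0.76 on the log2 scale, with both R241E mice above all WT mice in microglia and overlap in the macrophages. The effect on Ctss was larger in microglia than in neurons by 1.93. Between 3.41% and 6.38% of thinned neurons had a Ctss UMI, and in neurons the microglial identity genes had a median log2 fold change of -1.22 and mature microglial mRNAs one of -0.52. The effect on Cst3 was larger in microglia than in oligodendrocytes by 1.12, although Cst3 was called in neither class and overlapped between genotypes in both. In oligodendrocytes those medians were -1.42 and -0.57. The part of microglial RNA in these differences was not tested.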

How the results depend on the processing

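With 2 R241E and 3 WT mice each result rests on few animals. All 10 members were higher in R241E microglia, and Ctss, Ctsc and Ctsz were called, under DESeq2, limma-voom, other size factors, no filter on low counts, lifted upper limits, thinning and members kept in clustering. Of 160 repeats of the members' changes in microglia, 130 kept direction and call, 16 lost the call, 10 gained it and 4 reversed: Cst3 at -0.59 in nuclei of low ribosomal protein share, -0.30 without the C1q-led cluster and -0.00967 without R241E mouse 2, and Ctsd at -0.0324 at low ribosomal share. Without WT mouse 3, Cst3 was called at 1.04. Genes called in microglia numbered 1098, and 496 in nuclei with no mitochondrial UMI, 729 at low ribosomal share, 665 after thinning and 483 to 1476 with 1 library left out. The members called there numbered 7, and 3 at low ribosomal share, 3 without the C1q-led cluster and 5 to 10 with 1 library left out. The summed members, with Cst3 the largest part in all microglia, differed by 30.3 per 10000 UMIs. The difference was 1.22 at low ribosomal share, 3.99 without the C1q-led cluster and 13.1 to 47.5 with 1 library left out. At low ribosomal share the summed members took 35.2 and 40.4 of 10000 UMIs in R241E and 29.2, 37.6 and 43.0 in WT. The selections hold fewer nuclei than all microglia. The cause of these changes in calls and levels was not tested. Outside microglia 1 call appeared with no filter on low counts (Cst3, higher in astrocytes) and 0 to 1 with 1 library left out (Cst3, lower in oligodendrocytes without WT mouse 1). Differences between classes numbered 3, and 0 to 6 with 1 library left out. With mouse number as a replicate block, 1752 genes and all 10 members were called in microglia and 1 member outside (Cst3 in astrocytes). The numbers are not known to pair mice: deviations of same-numbered mice correlated at 0.166 and -0.0259.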
